A study of Mus musculus with 2 samples.

Results

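Connexin transcripts of glia and neurons were examined in RNA of postnatal day 14 cerebrum from wild-type mice and laggard (lag) mutant mice. The 6 genes were taken from a list of names. Gjc3 and Gjb1 represent oligodendrocytes, Gja1, Gjb6 and Gjb2 astrocytes, and Gjd2 neurons. A probe set counted only where the annotation of the Affymetrix mouse array paired it with that gene alone, which left 14 probe sets for the 6 genes, among 18194 genes named in this way. Of the 6 genes, 4 were above the background level, among 13876 genes of the series that were above it on at least 1 array.

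The wild-type sample and the mutant sample were each hybridized to 1 array. The lag mutation is a spontaneous recessive splice-site change in Kif14, a kinesin of cytokinesis, which arose on a mixed strain background and was backcrossed repeatedly to C57BL/6J mice. The design note names a littermate as the control of a mutant, and the number of mice behind each array is not stated. The single probe set of Kif14 was under the background level on both arrays, at a wild-type signal of 6.85 and a mutant signal of 0.733. By real-time PCR the paper saw no noticeable difference in the level of Kif14 mRNA between mutants and littermate controls. For both reasons the signal of Kif14 does not check the labels.

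Connexins are membrane proteins that assemble into hemichannels, and hemichannels of neighboring cells dock to form gap junctions through which ions and small metabolites pass. Connexin genes are divided among the cells of the brain. Among others, oligodendrocytes make Cx29 (Gjc3) and Cx32 (Gjb1), astrocytes make Cx43 (Gja1), Cx30 (Gjb6) and Cx26 (Gjb2), and Cx36 (Gjd2) forms most of the electrical synapses between neurons. Oligodendrocyte and astrocyte connexins couple both cell types into a network that is known for the redistribution of potassium around myelinated axons.

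The values are MAS5 signals, a scaled brightness per probe set on a linear scale. Because each genotype had 1 array, variation among mice could not be estimated, and neither errors nor p-values are given. The background level was the 95th percentile, over both arrays, of 127 probe sets for olfactory, vomeronasal and taste receptors and keratin-associated proteins, families with little or no transcription in brain, and was a signal of 49.5. A gene took its probe set of highest mean signal. A signal under the level was raised to it, and the fold is then a lower bound. Across the measured genes the log2 ratio of mutant over wild-type had a median of 0.01 and an SD of 0.36, and the SD was 0.46 over the 3469 dimmest and 0.26 over the 3469 brightest of them. Control probe sets at the 3' and 5' ends of Actb, whose ratio reflects how intact the RNA was, gave 1.55 for wild-type and 1.38 for mutant RNA, and those of Gapdh gave 0.819 and 0.772.

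Both oligodendrocyte connexins were under the background level on both arrays. Gjc3, which encodes a connexin of the innermost myelin layers along the axon, had a wild-type signal of 40.5 and a mutant signal of 8.37 by probe set 1422042_at. Its other probe set, 1445523_at, went the opposite way, from 14.4 to 36.0. Gjb1, which encodes a connexin of the outer myelin and of channels between the layers of a myelin sheath, had signals of 37.8 and 25.7 by probe set 1448766_at. Its probe set 1448767_s_at was at 9.24 and 7.48. All 4 probe sets thus lay below 49.5 in both genotypes, and no fold change is given for either gene.

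**Figure D1:**
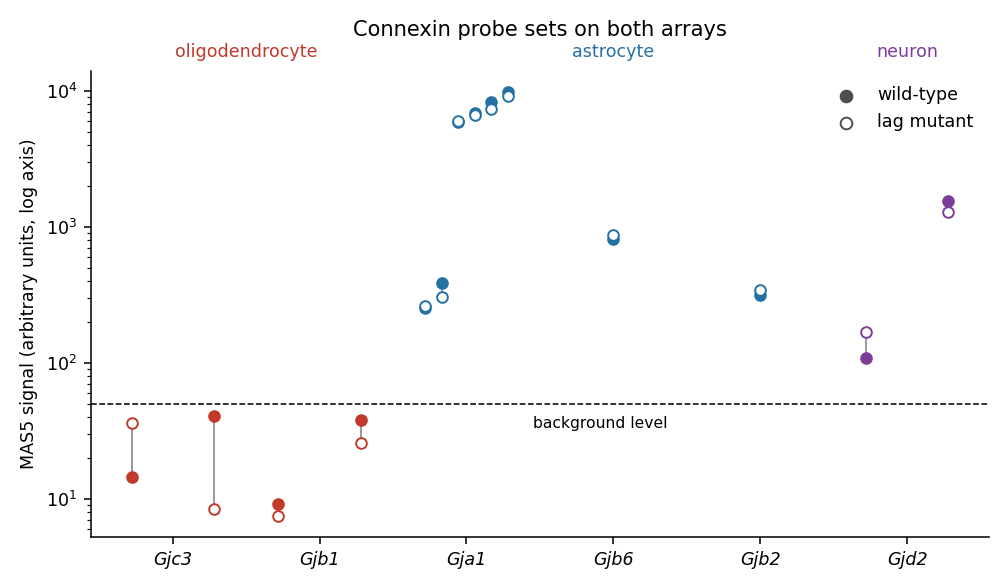
MAS5 signals (log axis) of the 14 probe sets of the 6 connexin genes; filled points are the wild-type array, open points the lag mutant array, and a grey line joins the same probe set. The 4 probe sets of Gjc3 and Gjb1 lie under the dashed background level of 49.5, and all probe sets of the other 4 genes lie above it.

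Position within the background probe sets was given for these 4 probe sets as a description. In the wild-type, 118 of the 127 background probe sets had a lower signal than 1422042_at of Gjc3, and in the mutant 60 had. For 1445523_at of Gjc3 the numbers were 78 and 107. The brighter probe set of Gjb1 exceeded 117 and 95 of them, and its dimmer probe set exceeded 61 and 53. Every one of the 4 therefore lay inside the range of the background probe sets on both arrays. The wild-type signal at 1422042_at was the highest of the 8 values, and it lay above 38.4, the 90th percentile of the background probe sets.

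**Figure D2:**
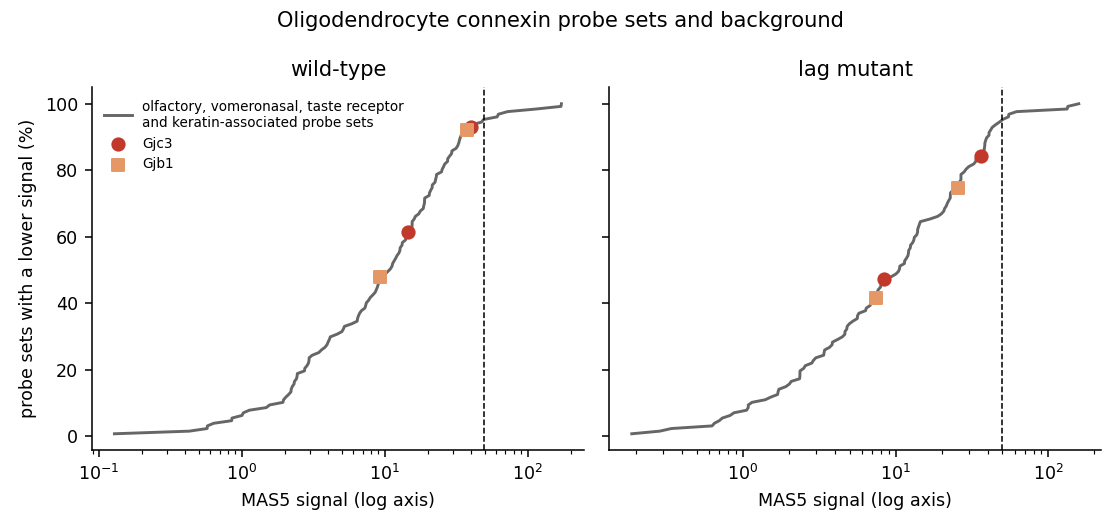
Share of the 127 background probe sets (grey line, %) with a signal below the value on the x axis (MAS5 signal, log axis), in the wild-type (left) and the lag mutant (right). The probe sets of Gjc3 (circles) and Gjb1 (squares) lie on the line to the left of the dashed level of 49.5; the highest of them, Gjc3 in the wild-type, exceeds 118 of the 127.

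Markers of the cells that use these 2 genes were above background in the wild-type. The lowest, Opalin, was at 112, under 145, the 99th percentile of the background probe sets. All 11 measured oligodendrocyte markers were at least 2-fold lower in the mutant, with a median log2 ratio of -2.56. Their summed signal was 35872 against 2691, and no marker was listed at 0. They were Mbp, Mobp, Mog, Mag, Cnp, Cldn11, Mal, Ermn and Opalin, genes of the myelin sheath, Ugt8a, an enzyme of galactolipid synthesis, and Sox10, a transcription factor of the lineage. Mog, which encodes a protein of the outer myelin surface, had a wild-type signal of 293 and a mutant signal of 1.45, at least 5.91-fold lower. The study listed such myelin genes for their decrease on these same arrays, so that their direction is not independent evidence. In tissue RNA, fewer oligodendrocytes and less RNA per oligodendrocyte cannot be told apart. Whether Gjc3 and Gjb1 followed these markers could not be read from signals under background.

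The sequences before the transcription starts of the oligodendrocyte connexins are shown because Sox10, which is known to act on the Gjb1 promoter, went from 637 to 88.2, 7.22-fold lower. RefSeq windows of GRCm38.p6 were available for all 6 genes, 9 in all, of which Gjb1 had 4. The 250 bases before each start were searched on both strands for ACAAT and ACAAAG, short forms bound by SOX proteins. Of the Gjb1 windows, only those that held both forms are printed. Of those left out, chrX:101376985-101377234 held ACAAT alone, on the opposite strand, and chrX:101381868-101382117 held neither. Printed matches stand in capitals. Other letters are in lower case, and each sequence runs 5′ to 3′ toward the start of its gene, with Gja1 added as the astrocyte counterpart.
Gjc3, chr5:137963099-137963348, minus strand: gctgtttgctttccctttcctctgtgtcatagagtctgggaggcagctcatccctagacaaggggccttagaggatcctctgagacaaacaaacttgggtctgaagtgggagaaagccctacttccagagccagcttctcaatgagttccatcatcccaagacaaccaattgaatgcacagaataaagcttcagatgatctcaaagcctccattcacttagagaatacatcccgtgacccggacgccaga
Gjb1, chrX:101376126-101376375, plus strand: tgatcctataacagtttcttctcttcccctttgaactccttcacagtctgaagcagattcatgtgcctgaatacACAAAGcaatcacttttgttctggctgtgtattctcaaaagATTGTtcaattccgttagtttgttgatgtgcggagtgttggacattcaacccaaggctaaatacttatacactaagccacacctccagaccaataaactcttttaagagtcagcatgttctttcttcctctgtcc
Gjb1, chrX:101383482-101383731, plus strand: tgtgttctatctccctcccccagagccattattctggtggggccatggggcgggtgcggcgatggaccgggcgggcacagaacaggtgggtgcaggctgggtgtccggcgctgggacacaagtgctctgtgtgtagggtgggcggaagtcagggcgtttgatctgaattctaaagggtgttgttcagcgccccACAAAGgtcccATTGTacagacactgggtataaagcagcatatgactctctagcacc
Gja1, chr10:56377050-56377299, plus strand: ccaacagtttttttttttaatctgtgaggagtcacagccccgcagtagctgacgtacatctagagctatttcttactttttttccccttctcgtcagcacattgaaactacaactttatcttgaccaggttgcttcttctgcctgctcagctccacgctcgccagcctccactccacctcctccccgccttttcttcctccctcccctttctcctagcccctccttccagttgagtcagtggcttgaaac
In the last Gjb1 window ACAAAG lay at bases 57 to 52 before the start and the reverse complement of ACAAT at bases 46 to 42. That window also had TATAAA at bases 29 to 24 and 3 matches of GGGCGG. The first Gjb1 window held ACAAAG at bases 176 to 171 and the reverse complement of ACAAT at bases 135 to 131. In all, 3 of the 9 windows held at least 1 of the SOX forms. All 3 belonged to Gjb1, which had 4 windows where each other member had 1. Neither form was in the windows of Gjc3, Gja1, Gjb6, Gjb2 or Gjd2. Among 32851 RefSeq windows of the same length, 27.7% held ACAAT and 16.5% held ACAAAG on either strand, and 38.8% held at least 1 of them. The count of 3 in 9 windows is thus near the share over all windows. TATAAA was in 12.4% and GGGCGG in 32.7%, and among the members GGGCGG was also in the windows of Gjb2 and Gjd2. These matches are letters in a sequence, and nothing on these arrays measures binding.

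Astrocyte connexins were clearly above background and differed little between the genotypes. Gja1, which encodes the main astrocyte connexin, had a wild-type signal of 9823 and a mutant signal of 9101, a log2 ratio of -0.11. Gjb6, which encodes a connexin of grey matter astrocytes in particular, was at 816 and 867, a log2 ratio of 0.09. Gjb2, which is made by astrocytes and also by cells of the meninges, was at 314 and 342, a log2 ratio of 0.12. The 2 arrays thus differed by 1.08-fold, 1.06-fold and 1.09-fold, with Gja1 lower and the other two higher in the mutant.

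None of the 4 measured members reached 2-fold in either direction. Among all 13876 measured genes, 1.02% were lower by at least 2-fold and 0.735% were higher by as much, so a count of 0 among 4 genes is near the background. Differences of at least the size of Gja1 were seen in 63.4% of the measured genes, of Gjb6 in 70.4% and of Gjb2 in 60.0%. Each was also smaller than the SD of the log2 ratio over the 3469 genes of like brightness, which was 0.26 for Gja1, 0.29 for Gjb6 and 0.39 for Gjb2. Without replicates, differences of this size cannot be told from none.

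The 6 probe sets of Gja1 covered a wide range of brightness. Probe set 1437992_x_at had signals of 9823 and 9101, 1415800_at 8346 and 7332, and 1438650_x_at 6825 and 6679. Probe set 1438945_x_at was at 5890 and 6017. The 2 dimmer ones, 1415801_at and 1438973_x_at, were at 384 and 304 and at 255 and 262. The mutant signal was lower at 4 probe sets and higher at 2, the log2 ratios lay between -0.34 and 0.04, and their SD was 0.15. Where a gene had 2 or more probe sets above background, as 6568 genes did, the median of this SD was 0.20. That median mixes genes with different numbers of probe sets, so it is not a like measure to the SD over 6. The suffix _x marks probe sets with probes that may bind other transcripts. Gjb6 and Gjb2 had 1 probe set each, so their values have no second reading.

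**Figure D3:**
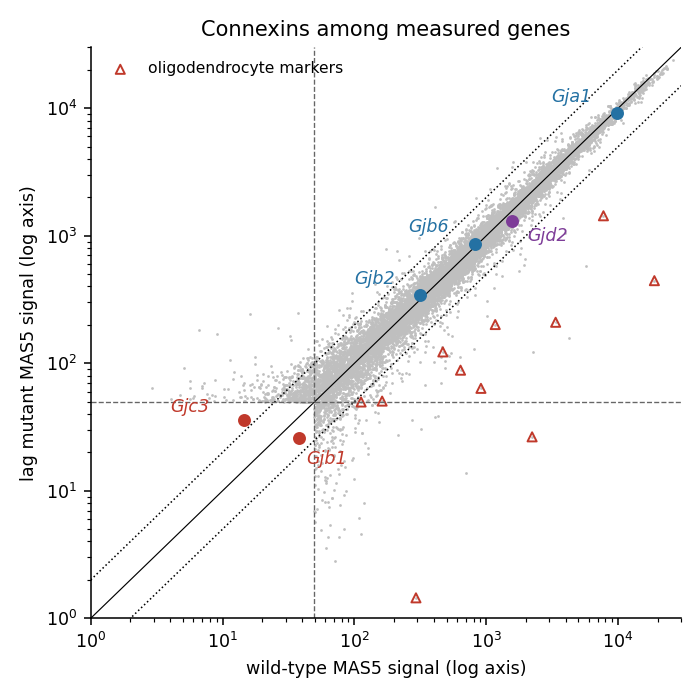
Signal in the lag mutant against signal in the wild-type (both log axes) for the 13876 measured genes (grey), the 6 connexins (colored points) and 11 oligodendrocyte markers (triangles); the solid line is equality, the dotted lines 2-fold, the dashed lines the background level of 49.5, and signals are as deposited. Gja1, Gjb6, Gjb2 and Gjd2 lie close to equality, the markers lie at or beyond 2-fold lower, and Gjc3 (by 1445523_at) and Gjb1 lie in the corner under background.

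The general astrocyte markers had log2 ratios from -0.61 to 0.81, a range over more genes than the 3 connexins and so not a like measure of spread. Of 9 measured, 6 were lower and 3 higher and none differed 2-fold, with a median log2 ratio of -0.22 against 0.09 for the 3 connexins. Glul, which makes glutamine, was at 10554 and 8011, Aldoc, a glycolytic enzyme, at 8950 and 7692, and the calcium-binding protein gene S100b at 2088 and 1793. The remaining lower ones were Aldh1l1, at 1639 and 1310, Slc7a10, at 1044 and 684, and Agt, at 744 and 741. The 3 higher in the mutant were Gfap, an intermediate filament gene, at 156 and 274, the growth factor receptor gene Fgfr3 at 1567 and 1783, and the transcription factor gene Sox9 at 304 and 336. Over all 9 the summed signal was 27047 and 22624. The 3 connexins stood 0.31 higher on the log2 scale than these markers, a difference of medians that was not tested.

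Meningeal fibroblasts also express Gja1, Gjb6 and Gjb2, and their markers differed between the arrays. Of 12 such markers, 11 were higher in the mutant, with a median log2 ratio of 0.43 and a summed signal of 26688 against 31945. Lum, a matrix proteoglycan, was at 259 and 526, 2.03-fold higher, while Col1a2, a collagen chain, was at 2711 and 3555, Igf2, a growth factor, at 3569 and 4236, and Ptgds, a prostaglandin synthase, at 14754 and 14717. No marker was listed at 0. The part of meningeal tissue in the values of Gjb2, Gjb6 and Gja1 was not tested.

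Oligodendrocyte and astrocyte connexins were set against each other as the main contrast. With both oligodendrocyte genes under background, no difference of their log2 ratios can be given at this level. The astrocyte side had a median log2 ratio of 0.09, from -0.11 to 0.12. The astrocyte connexins stood 2.65 higher on the log2 scale than the median of the oligodendrocyte markers. That difference compares astrocyte connexins with myelin genes and says nothing of Gjc3 or Gjb1.

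Gjb2 and Gjb6 are next to each other on chromosome 14 in the gene table of GRCm38.p6, with Gja3 on the other side of Gjb2. The 250 bases before their starts lie at chr14:57104703-57104952 and chr14:57133612-57133861, on the minus strand. Gjb2 and Gjb6 had log2 ratios of 0.12 and 0.09. Gja3, known as a lens connexin, had a wild-type signal of 19.3 and a mutant signal of 63.9, at least 1.29-fold higher, by 1 probe set. Its other probe set was under background on both arrays, at 2.67 and 13.8.

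The neuronal connexin Gjd2 was measured by a bright and a dim probe set, which moved in opposite directions. Probe set 1435297_at had a wild-type signal of 1556 and a mutant signal of 1296, 1.20-fold lower, a log2 ratio of -0.26. Probe set 1423019_at was at 109 and 170, 1.55-fold higher, a log2 ratio of 0.63. Its wild-type signal was under 145, the 99th percentile of the background probe sets, and above 124 of those 127. The mean over both probe sets of Gjd2 was a log2 ratio of 0.18. The sign of Gjd2 thus depended on the probe set, but the higher reading came from a signal near background. By the bright probe set, 30.4% of measured genes differed at least as much, and the value was close to the SD of 0.26 over genes of like brightness.

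General neuron markers were near equal on both arrays, with a median log2 ratio of -0.07 over 9 genes and none past 2-fold. The synaptic protein gene Snap25 was at 15349 and 16408, the tubulin-binding protein gene Stmn2 at 17992 and 16820, and the dendritic protein gene Map2 at 12717 and 13301. Their median lay between the log2 ratios of the bright and the dim probe set of Gjd2, -0.26 and 0.63. Interneurons of the cerebral cortex use Gjd2 for their electrical synapses. Of 10 interneuron markers 6 were lower and 4 higher, with a median of -0.20, where 6664 of all 13876 measured genes were lower. Vip, a neuropeptide gene of a class of interneurons, went from 1013 to 307, 3.30-fold lower. Gad1, which makes the transmitter GABA, was at 8843 and 8069, Sst, a neuropeptide gene, at 4177 and 5144, and the neuropeptide gene Npy at 2942 and 3411. The other lower ones were Gad2, at 2891 and 2398, Slc32a1, at 2039 and 1676, Kcnc1, at 809 and 576, and Pvalb, at 391 and 255. Lhx6 and Kcnc2, the other higher ones, were at 461 and 466 and at 1279 and 1283. Gjd2 is also transcribed in midbrain and hindbrain, and all 9 measured markers of those regions were lower in the mutant, with a median of -1.27 and a summed signal of 2531 against 1065. At least 2-fold lower were Slc6a3 and Th, genes of dopamine neurons, and Slc6a4 and Tph2, genes of serotonin neurons. So were Ddc, an enzyme common to both, and En2, a patterning gene. En2 was at 126 and 21.6, with the mutant signal under background, so that its fold is a lower bound. Some others of the 9 were also under background in the mutant, and 2 further listed markers were so on both arrays. Slc18a2, the vesicular transporter of monoamines, was at 367 and 293. None of these markers was listed at 0, and their part in the value of Gjd2 was not tested.

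Other connexins were mostly under background. Of 14 connexin genes with a probe set of their own, the 6 above included, 7 were measured, with a median log2 ratio of 0.09 and none past 2-fold. Gjc1, a connexin of blood vessel walls and of the developing brain, was at 718 and 803 by its brighter probe set. By the dimmer one it was at 140 and 114, and the 2 differed in direction. Both signals of the dimmer one were under 145, the 99th percentile of the background probe sets. Gja4, a connexin of endothelium, was at 270 and 282, a log2 ratio of 0.06. Endothelial markers stood at a median of -0.27, with 5 of 7 lower, Slc2a1, a glucose transporter gene, at 2056 and 2135, Cldn5, a tight junction gene, at 1650 and 1420, and Kdr, a growth factor receptor gene, at 659 and 496. Gja5, Gja10, Gjb5, Gjd4 and Gje1 were under background on both arrays, with signals from 1.30 to 31.4.

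Pannexins, which form channels in the membrane of single cells and are related in shape but not in sequence to connexins, also differed little. Panx1 was at 839 and 792 and Panx2 at 360 and 385, with log2 ratios of -0.08 and 0.09. Panx3 was under background at all 3 of its probe sets.

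**Figure D4:**
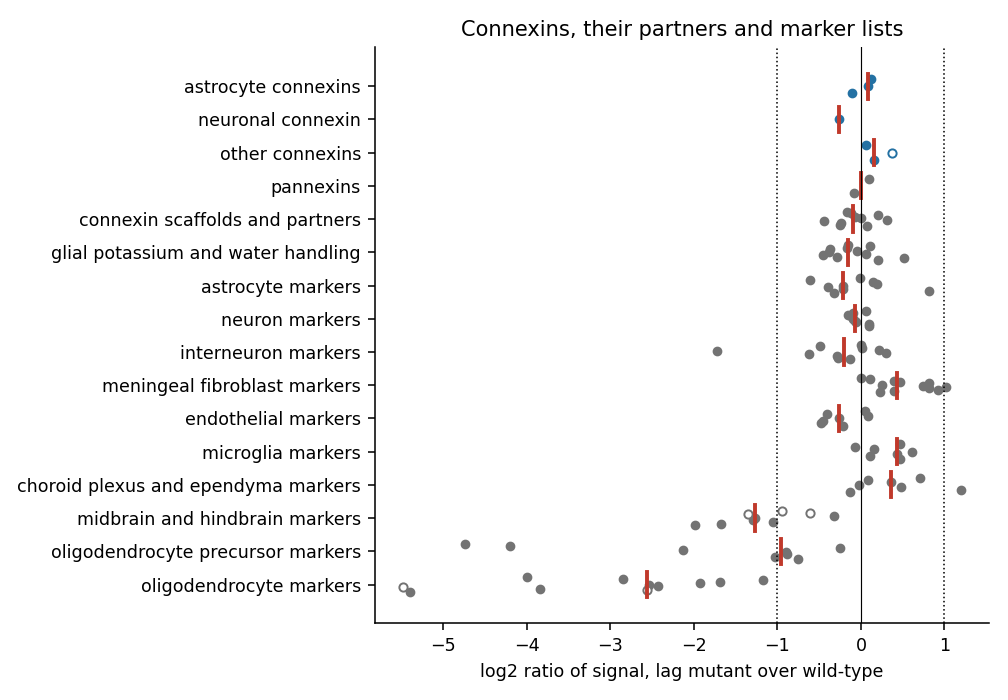
Log2 ratio (lag mutant over wild-type signal) for measured genes of 16 lists; each point is a gene, open where 1 signal was raised to background, red bars are list medians and dotted lines mark 2-fold. The oligodendrocyte connexins have no measured gene and are not drawn; the astrocyte connexins lie between -0.11 and 0.12, and all 11 oligodendrocyte markers lie to the left of -1.

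Scaffolds and partners of connexins, of which 10 of 12 were measured, had a median log2 ratio of -0.09, with 7 lower, 3 higher and none past 2-fold. Tjp1, which encodes the scaffold ZO-1 beneath gap junction plaques, was at 2377 and 2508. Ctnnb1, a catenin of adherens junctions, was at 14501 and 13397, the cadherin gene Cdh2 at 5427 and 6246, and Ccn3, whose secreted protein binds Cx43, at 5143 and 6375. Cav1, a caveolar protein, was the lowest in ratio, at 1048 and 772. Genes of potassium and water handling in glia, of which 11 of 13 were measured, had a median of -0.16, with 7 lower, 4 higher and none past 2-fold. Kcnj10, the potassium channel gene that works alongside glial gap junctions, was at 1115 and 1280, and Kcnj16, its partner subunit, at 265 and 377. Aqp4, the water channel of astrocyte endfeet, was at 5810 and 4750. Lowest in ratio were Mlc1, at 2059 and 1501, Clcn2, at 298 and 228, and Slc4a4, at 3133 and 2419. The glutamate transporter genes Slc1a2 and Slc1a3 were at 13097 and 11696 and at 3743 and 4032. The median over all measured genes was 0.01, and these medians are given beside it as a description.

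Genes of like signal on both arrays were listed for the 4 measured members, by the distance between their log2 signals over the 2 arrays. Nearest to Gja1 were Ppp1cc, Ndufa3 and Fbxw11, at distances of 0.018 to 0.022. Nearest to Gjb6 were Lrrtm3, Zfp292 and Prpf31, at 0.0083 to 0.0096, and nearest to Gjb2 were Ttc39b, Tma16 and Edem2, at 0.0073 to 0.013. Those nearest to Gjd2 were Ylpm1, Lonrf1 and Sorl1, at 0.0094 to 0.021. None of the other connexins was among them, and over 2 arrays the distance reflects brightness and little else.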

How the data were processed

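RNA of 1 wild-type and 1 lag mutant cerebrum sample at postnatal day 14 was measured on 1 Affymetrix array each. The authors computed the deposited intensities with the MAS5.0 software at its default settings, including global scaling. No detection calls were used here. With 2% of probe sets trimmed from each end, both arrays had a mean signal of 500.0, and their medians were 105 (wild-type) and 98.3 (mutant). Of 45101 probe sets, 34958 named a single gene, 932 named several and 9211 named no gene in the annotation used, and RefSeq (GRCm38.p6) supplied current symbols by Entrez number for 34754.

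Ratios of mutant to wild-type intensity were taken on the log2 scale against 1 common background level, so that raising a signal cannot turn a direction. Signals and folds describe 2 arrays, without replicates or tests, and 2-fold is a limit of size. The number of arrays limits the precision. Named were the 6 members, the other connexins and pannexins, and the 3 genes nearest each member. Also named were the 3 genes of highest mean signal in each list and those past 2-fold. Tjp1, Cav1, Kcnj10, Kcnj16, Gfap, Fgfr3, Sox9, Pdgfra and Olig2 were added after their values were seen. So were Mlc1, Clcn2, Slc4a4, Aldh1l1, Slc7a10 and Agt, and the interneuron markers Gad2, Slc32a1, Pvalb, Kcnc1, Lhx6 and Kcnc2. The members and all 17 lists were chosen with earlier results of these data known. Some connexin genes are not reported here. Motifs were searched in RefSeq promoter windows. The calculation was tested on simulated data, with changes given only to genes well above background. Its noise SD was 0.24 on the log2 scale, under the SD of 0.36 over the measured genes. It therefore does not show whether changes at signals like those of Gjc3 and Gjb1 could be recovered. Alternatives changed the probe set, the background level, the normalization, an offset and the fold. Calculations ran in Python 3.11.15 with pandas 2.3.3, numpy 2.4.6 and scipy 1.17.1, and matplotlib 3.10.9 drew the figures.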

Additional observations from a re-analysis of the deposited data

How the results depend on the processing

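No paired analysis was possible because only 1 sample stood for either genotype, which also left no replicate to leave out. The astrocyte connexins kept their signs in 10 alternatives, of which 7 could not move Gjb6 or Gjb2, each with 1 probe set above every level, with medians from 0.07 to 0.10, Gja1 from -0.34 to -0.07, Gjb6 from 0.07 to 0.10 and Gjb2 from 0.11 to 0.15. For Gjd2 the log2 ratio was 0.18 with the mean over all probe sets and 0.63 with the probe set of largest absolute log2 ratio, and from -0.28 to -0.25 in the other 8. By the chosen probe sets, 0 oligodendrocyte connexins were above background as reported and in 8 alternatives, although the other probe set of Gjc3, 1422042_at, passed the 90th percentile level in the wild-type, and both had a value in the other 2, which set no background level. With signals as deposited and as log2(signal + 50), Gjc3 was at 1.32 and 0.42 by 1445523_at and Gjb1 at -0.55 and -0.21. By 1422042_at, Gjc3 was at -2.27 with signals as deposited, so that the sign of Gjc3, and of any median or contrast with it, turns with the probe set. All are ratios of signals under background and give no direction.

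Genes at least 2-fold lower, 142 in the report, were 301 with the probe set of largest absolute log2 ratio, 69 with the level at the 99th percentile, 980 with no level, 93 as log2(signal + 50), 490 at 1.5-fold and 29 at 4-fold. Those at least 2-fold higher, 102, were 177 with that probe set, 154 at the 90th and 32 at the 99th percentile, 1232 with no level, 49 as log2(signal + 50), 588 at 1.5-fold and 4 at 4-fold. Signals under 49.5, inside the range of the background probe sets, limit what these arrays show of Gjc3 and Gjb1.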

Other observations

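The list of oligodendrocyte precursor markers also holds genes of cells about to myelinate. All 8 of its genes were lower in the mutant, with a median log2 ratio of -0.96. Bcas1, a gene of cells about to myelinate, was at 4206 and 157, Gpr17, a receptor gene of the same stage, at 2259 and 123, and the transcription factor gene Sox8 at 1019 and 234. Cspg4, a proteoglycan of precursors, was at 344 and 168, while Olig1 and Ptprz1, at 6031 and 3267 and at 6627 and 5576, were within 2-fold. So were Pdgfra, at 2508 and 1481, and Olig2, at 1134 and 611. Some of the 8 genes were listed by the study for their decrease on these same arrays, so that their direction is not independent evidence. By real-time PCR of whole brain at earlier ages, the paper saw no noticeable difference in Olig2 and Pdgfra mRNA. It also found no significant difference in cells stained for either protein in embryonic cortex. Age and tissue thus differ from those of the arrays.

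Of 7 microglia markers 6 were higher in the mutant and none passed 2-fold, with a median of 0.43, where 7212 of all 13876 measured genes were higher, with a median of 0.01. Csf1r, a growth factor receptor gene, was at 4170 and 4511, and the complement genes C1qa and C1qb were at 1018 and 1370 and at 766 and 1169. Of 7 choroid plexus and ependyma markers 5 were higher and 2 lower, with a median of 0.36 and a summed signal of 23914 against 22454. Folr1, a folate receptor gene of the choroid plexus, was at 206 and 474, 2.30-fold higher, Ttr, which encodes transthyretin, at 22753 and 20819, and the channel gene Kcnj13 at 309 and 397.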
